A study of Mus musculus with 15 samples.

Results

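Transcripts of 9 enzymes that desaturate or lengthen fatty acids were followed in erythroid progenitors of wildtype and Rpl5 mutant mouse embryos. The genes were taken by name from the gene tables and are 9 of the 55487 mouse genes listed: the desaturases Scd1, Scd2, Fads1, Fads2 and Fads3, and the elongases Elovl1, Elovl5, Elovl6 and Elovl7. The product of Rpl5 is a component of the ribosome, and mutation of the human gene is a known cause of Diamond Blackfan anemia syndrome, in which too few red cells are made. Lipid metabolism in that disorder is the subject named in the title of the series. All embryos were of strain 129S6/SvEvTac at stage E12.5, when the fetal liver is the main site of red cell formation, and no treatment is labelled. Mouse group 1 comprised 3 wildtype (WT) and 3 mutant (M) libraries, with polyA RNA as the labelled molecule. In mouse group 2 there were 3 wildtype libraries, 3 from mutants and 3 from mutants labelled low-yield (M-lowyield), with total RNA as the labelled molecule. The sample sheet of group 2 gives all 6 of its mutants as Rpl5plusSkax23Jus, the sheet of group 1 names no allele, and "low-yield" is not explained. Nothing in the labels says how the progenitors were isolated, how many embryos went into a library, or whether libraries of a group came from separate embryos. The p-values therefore measure the spread between these libraries, which may in part be technical.

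Fatty acid synthase makes saturated palmitate. Scd enzymes (stearoyl-CoA desaturases) place a double bond at the delta-9 position of palmitoyl-CoA and stearoyl-CoA and so make the monounsaturated palmitoleate and oleate. Fads2 and Fads1 (delta-6 and delta-5 desaturases) act in turn on the essential fatty acids linoleate and alpha-linolenate, with elongation by Elovl5 between the steps, on the way to arachidonate and related long polyunsaturated fatty acids. Elongases of the Elovl family add carbon units from malonyl-CoA in the endoplasmic reticulum: Elovl6 lengthens palmitate to stearate, while Elovl1 and Elovl7 act on long saturated and monounsaturated chains. Scd1, Fads1, Fads2, Elovl5 and Elovl6 are textbook targets of the transcription factor SREBP-1, the product of Srebf1, with the liver X receptors as further activators of Scd1 and Srebf1.

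The members lie in few places of the mouse genome (GRCm38, positions from GENCODE M21). All 5 desaturases are on chromosome 19. Fads3 (ENSMUSG00000024664, 10041569 to 10060110, forward strand), Fads2 (ENSMUSG00000024665, 10062765 to 10101746, reverse) and Fads1 (ENSMUSG00000010663, 10182888 to 10196877, forward) are neighbours there, and Scd2 (ENSMUSG00000025203, 44293674 to 44306864, forward) and Scd1 (ENSMUSG00000037071, 44394455 to 44407879, reverse) form a second cluster with Scd3 and Scd4. The elongases are dispersed: Elovl1 (ENSMUSG00000006390) on chromosome 4 from 118428093 to 118432953, Elovl5 (ENSMUSG00000032349) on chromosome 9 from 77917364 to 77984519, Elovl6 (ENSMUSG00000041220) on chromosome 3 from 129532355 to 129638495 and Elovl7 (ENSMUSG00000021696) on chromosome 13 from 108214404 to 108285683, all on the forward strand. Exons of Scd2 overlap the microRNA gene Mir5114 on the same strand. Exons of Elovl1 overlap those of Cdc20, a cell cycle gene on the opposite strand, and exons of Elovl6 overlap the predicted gene Gm35986. The use of strand in the counting is not stated, so the counts of both elongases are uncertain to that extent. Scd1 and Scd2 share 145 of the 4783 windows of 50 bases in the longest Scd1 transcript (3.03%) and of the 5406 in the longest Scd2 transcript (2.68%). At the labelled read length of 151 bases these transcripts shared 0 windows, by exact identity. Scd2 had many times the counts of Scd1, so even a small share of its reads trimmed short enough to fit both genes, and assigned to Scd1, would weigh on the low Scd1 counts, and how such reads were divided is not stated.

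Promoters of 1 desaturase, Fads3, and 1 elongase, Elovl5, are shown because both hold 2 copies of the CCAAT box, the motif bound by NF-Y. The log2 fold changes given below are under 0 for Fads3 and above 0 for Elovl5. In the main fits those of Elovl5 did not pass the test, nor did those of Fads3 in the group 1 and group 2 mutants. The RefSeq promoter table (GRCm38.p6, 250 bases before to 50 bases after each start) had entries for 6 members: Fads2, Fads3, Elovl1, Elovl5, Elovl6 and Elovl7. The bases before the annotated exons are given from 5′ to 3′ on the strand of the gene, with CCAAT or its reverse complement in capitals. Fads3 is at chr19:10041298-10041547 and Elovl5 at chr9:77917115-77917363, both on the forward strand.
Fads3: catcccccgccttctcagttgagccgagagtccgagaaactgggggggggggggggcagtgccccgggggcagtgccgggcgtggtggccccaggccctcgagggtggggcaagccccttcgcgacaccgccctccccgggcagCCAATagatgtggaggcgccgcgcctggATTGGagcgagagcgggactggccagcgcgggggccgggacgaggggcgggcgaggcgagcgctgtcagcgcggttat
Elovl5: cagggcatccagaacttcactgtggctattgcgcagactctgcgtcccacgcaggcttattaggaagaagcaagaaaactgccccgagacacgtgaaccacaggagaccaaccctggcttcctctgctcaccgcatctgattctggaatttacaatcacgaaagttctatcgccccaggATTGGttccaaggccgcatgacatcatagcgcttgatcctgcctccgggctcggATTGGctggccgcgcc

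The G and C content of these stretches was 74.4% for Fads3 and 55.8% for Elovl5. A set of 6 motifs was searched on both strands of the windows of 300 bases, of which the members have 7, Elovl1 having 2. CCAAT was in 3 of the 7 windows (Fads3, Elovl5 and 1 of Elovl1) and in 37.4% of the 32851 windows in the table. The E-box CACGTG was in the Elovl5 window and in 7.15% of all windows. AGATAA, one form of the GATA site, was in 1 Elovl1 window and in 11.2% of all. CCNCNCCC, a GC-rich form that KLF proteins can bind and that overlaps itself in runs of C, was in 5 of the 7 windows (Elovl1 in both, Elovl6, Elovl7 and Fads3) and in 49.5% of all. The sterol regulatory element core TCACNCCAC, found in 1.24% of all windows, and the direct repeat DR4 of liver X receptors, found in 0.0152%, were in none of the 7. A match is a string of letters, not a site of binding. The CCAAT letters were in desaturase and elongase windows but not in that of Fads2, and any link to the changes was not tested.

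The cell type and the mutation were checked against the values before the members. Total counts were between 24954324 and 58513669 per library. All 13 erythroid markers were tested in both mouse groups, and Gata1, the master regulator of the lineage, had a mean between 209 and 382 CPM in the 5 groups (CPM, the usual scaling of counts by library size, here after TMM normalisation within a mouse group). Rpl5 was at 656, 668 and 744 CPM in the wildtype libraries of group 1 against 520, 561 and 570 in the mutants. In group 2 it was at 324, 303 and 374 in the wildtype, 232, 248 and 248 in the mutant and 243, 219 and 278 in the low-yield mutant libraries. Every mutant library was below every wildtype library of its mouse group. The libraries also carried transcripts of other cells. The 14 hepatocyte markers summed to 37.7 to 70.1 CPM in the wildtype and 8.49 to 25.2 in the mutants of group 1, and to 12.9 to 93.9, 11.99 to 58.5 and 51.7 to 57.7 in the wildtype, mutant and low-yield mutant libraries of group 2. The 13 granulocyte and mast cell markers summed to 103 to 772 and 266 to 1469 CPM in the wildtype and mutants of group 1, and to 18.2 to 37.8, 144 to 236 and 180 to 394 CPM in the 3 sets of group 2.

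In wildtype progenitors Scd2 was by far the most abundant member. Levels of different genes were compared as CPM per kilobase (kb) of exon. The order in both mouse groups was Scd2, Fads2, Elovl1, Fads1, Elovl5, Scd1, Elovl6, Fads3 and Elovl7. Mean Scd2 was 159 ± 6.53 CPM per kb (SD, n = 3) in group 1 and 175 ± 8.28 in group 2, where 1.92% and 1.73% of the tested genes with a known length had a higher mean. Fads2 followed with 47.1 ± 3.13 and 51.1 ± 5.86 CPM per kb, then Elovl1 with 26.1 ± 1.99 and 25.7 ± 0.639. Scd1, the isoform best known from adult liver and fat, reached 8.73 ± 1.79 and 8.35 ± 2.22 CPM per kb. Its range overlapped that of Elovl6 in group 1 and that of Elovl5 in group 2, so these neighbours did not differ beyond their spread, whereas no other neighbours in the order overlapped. Fads3, a family member that acts on sphingoid bases, was at 0.803 ± 0.0688 and 1.42 ± 0.256 CPM per kb. Elovl7 was close to the limit of detection, with 1 to 10 counts per wildtype library. The order was the same when the longest transcript replaced the union of exons and when TMM scaling was left out.

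Scd1 was the member with the largest decrease in all 3 sets of mutants; a gene is said to be called, to rise or to fall where its adjusted p was under 0.05 over all tested genes. In group 1 it was at 33.9, 42.9 and 51.4 CPM in the wildtype libraries and at 13.0, 11.6 and 11.4 CPM in the mutants. The mutants lay close together, and the lowest wildtype library was above all of them. In group 2 the wildtype libraries had 30.4, 52.1 and 40.1 CPM, the mutants 18.1, 14.5 and 10.9 CPM and the low-yield mutants 6.75, 6.18 and 7.76 CPM. The 3 sets did not overlap, and the low-yield mutants were the lowest. The mutant mean was 28.1% of the wildtype mean in group 1 and 35.5% in group 2, and the low-yield mutant mean was 16.9% of it. As fitted by edgeR (quasi-likelihood), Scd1 changed by -1.83 on the log2 scale (SE 0.15, adjusted p 8.12e-05) in the group 1 mutants, by -1.51 (SE 0.20, adjusted p 0.00137) in the group 2 mutants and by -2.56 (SE 0.22, adjusted p 3.17e-05) in the low-yield mutants. Scd1 passed the threshold of 0.05 in all 14, 18 and 18 alternative analyses of these 3 comparisons.

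**Figure D1:**
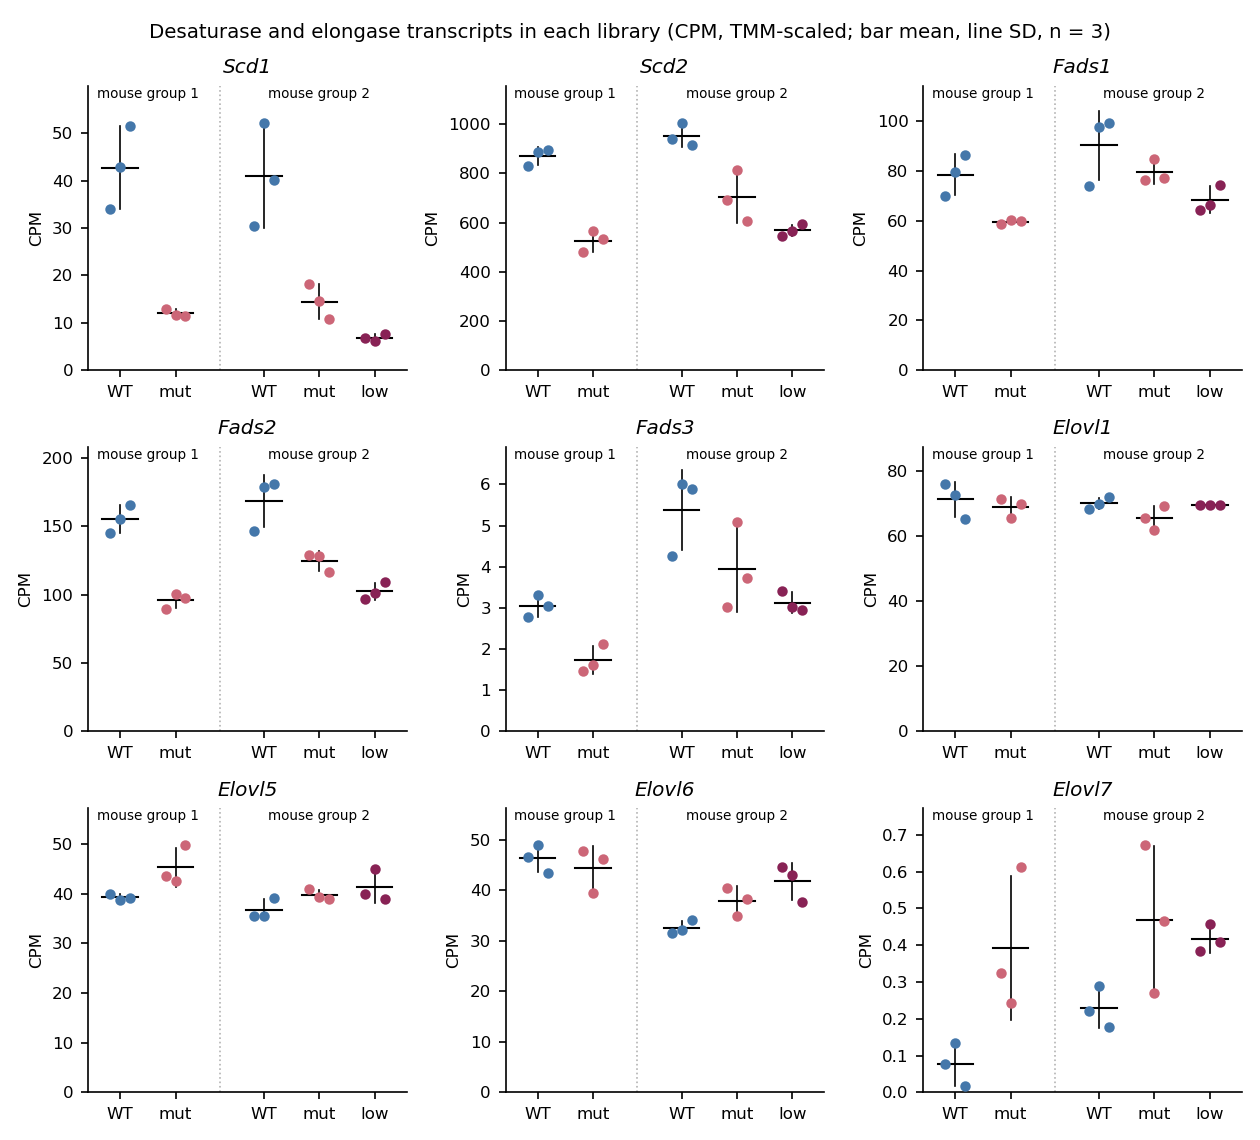
Level of each of the 9 genes in each of the 15 libraries, in CPM on linear axes from 0; WT is wildtype, mut mutant and low low-yield mutant, each point is a library, the horizontal bar the mean and the vertical line the SD of 3 libraries. Scd1, Scd2 and Fads2 were lower in every mutant library than in any wildtype library of the same mouse group, while Elovl1 and Elovl6 had overlapping groups in mouse group 1.

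Scd2, the isoform that dominates here and is known from brain and neonatal tissues, fell as well, by a smaller factor. Its wildtype libraries in group 1 had 829, 886 and 894 CPM and the mutants 479, 566 and 532 CPM. In group 2 the wildtype had 940, 1004 and 917 CPM, the mutants 691, 814 and 606 CPM and the low-yield mutants 547, 564 and 594 CPM. As for Scd1, the 3 sets of group 2 did not overlap. The log2 fold change was -0.73 (SE 0.07, adjusted p 0.000117, edgeR) in group 1, -0.44 (SE 0.10, adjusted p 0.0136) in the group 2 mutants and -0.75 (SE 0.10, adjusted p 0.000245) in the low-yield mutants. The call in the group 2 mutants was lost without wildtype replicate 2 (adjusted p 0.0715), mutant replicate 1 (0.0544) or mutant replicate 3 (0.0822). Because Scd2 has so many more counts than Scd1, a sum over Scd1 to Scd4 followed Scd2, with log2 fold changes of -0.76, -0.47 and -0.79.

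The balance of the pair shifted toward Scd2. Scd1 contributed 4.37%, 5.13% and 6.03% of the summed Scd1 and Scd2 level (CPM per kb) in the wildtype of group 1 and 2.93%, 2.25% and 2.35% in the mutants. In group 2 it contributed 3.49%, 5.48% and 4.65% in the wildtype, 2.84%, 1.95% and 1.97% in the mutants and 1.36%, 1.21% and 1.44% in the low-yield mutants. No mutant library of either mouse group reached its lowest wildtype library. Scd3 and Scd4, the other Scd genes of the cluster, had at most 10 counts in any library and did not pass the filter on low counts.

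Fads2, the delta-6 desaturase that opens the polyunsaturated pathway, fell by factors close to those of Scd2. Its wildtype libraries in group 1 had 145, 155 and 166 CPM and the mutants 89.2, 100.2 and 97.7 CPM. In group 2 the wildtype had 146, 178 and 181 CPM, the mutants 129, 128 and 116 CPM and the low-yield mutants 96.9, 101.1 and 109 CPM, again without overlap between the 3 sets. The log2 fold change was -0.70 (SE 0.07, adjusted p 0.000163, edgeR) in group 1, -0.44 (SE 0.09, adjusted p 0.0114) in the group 2 mutants and -0.72 (SE 0.09, adjusted p 0.000248) in the low-yield mutants. In the group 2 mutants the call was lost without wildtype replicate 2 (adjusted p 0.0644), wildtype replicate 3 (0.0533) or mutant replicate 3 (0.0726). The ratio of Scd2 to Fads2 (CPM per kb) had a mean of 3.38, 3.31, 3.44, 3.40 and 3.35 in the 5 groups, in the order in which the samples were introduced, and every library lay between 3.06 and 3.88.

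Fads1, the delta-5 desaturase, fell less. In group 1 its wildtype libraries had 69.7, 79.4 and 86.1 CPM and the mutants 58.7, 60.3 and 59.7 CPM, without overlap. In group 2 the wildtype had 74.0, 97.3 and 99.0 CPM, the mutants 76.2, 84.5 and 77.2 CPM and the low-yield mutants 64.2, 66.2 and 74.4 CPM. Wildtype replicate 1 of group 2 was below all 3 mutants and below the highest low-yield mutant. For Fads1 the log2 fold changes were -0.40 in group 1 mutants (SE 0.08, adjusted p 0.00862, edgeR) and -0.40 in the low-yield mutants (SE 0.11, adjusted p 0.0244), whereas -0.19 in the group 2 mutants did not pass (SE 0.11, adjusted p 0.367). The low-yield call was lost without wildtype replicate 2 (adjusted p 0.114), wildtype replicate 3 (0.103), low-yield replicate 1 (0.121) or low-yield replicate 2 (0.105).

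Fads3 was a low member of the family, with 72 to 264 counts per library. Its wildtype libraries in group 1 had 2.78, 3.31 and 3.05 CPM and the mutants 1.46, 1.61 and 2.11 CPM. In group 2 the wildtype had 4.27, 6.01 and 5.88 CPM, the mutants 3.02, 5.10 and 3.72 CPM and the low-yield mutants 3.42, 3.01 and 2.95 CPM. The sets were apart in group 1 and for the low-yield mutants, and overlapped for the group 2 mutants. In group 1 a log2 fold change of -0.82 (SE 0.26) did not pass (adjusted p 0.0609, edgeR) but did with the replicate number as a block (-0.81, adjusted p 0.0311). It was -0.48 (SE 0.24, adjusted p 0.276) in the group 2 mutants and -0.80 (SE 0.24, adjusted p 0.0406) in the low-yield mutants. Leaving out 1 library ended the low-yield call in 6 of 9 cases, with adjusted p up to 0.132, namely for wildtype replicate 2 or 3, mutant replicate 3, or any low-yield replicate.

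Of the elongases only Elovl6 was called in a comparison with wildtype within a mouse group, in the low-yield mutants. Elovl1, which makes very long saturated chains for sphingolipids, had 75.9, 72.6 and 65.3 CPM in the wildtype and 71.3, 65.6 and 69.8 CPM in the mutants of group 1. In group 2 it had 68.4, 69.8 and 71.9 CPM in the wildtype, 65.6, 61.7 and 69.3 CPM in the mutants and 69.4, 69.7 and 69.5 CPM in the low-yield mutants. Its log2 fold changes were -0.05, -0.10 and -0.01 (SE 0.07, 0.08 and 0.08), none of which passed the test, and each set of mutants overlapped the wildtype.

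Elovl5, the elongase of the polyunsaturated pathway, was at 39.9, 38.8 and 39.1 CPM in the wildtype and 43.6, 42.5 and 49.8 CPM in the mutants of group 1, all mutants being above all wildtype libraries. In group 2 it was at 35.6, 35.5 and 39.2 CPM in the wildtype, 40.9, 39.3 and 39.0 CPM in the mutants and 40.0, 44.9 and 39.0 CPM in the low-yield mutants, where the sets overlapped. The log2 fold changes of 0.21, 0.11 and 0.17 (SE 0.08, 0.09 and 0.09; adjusted p 0.122, 0.578 and 0.288, edgeR) did not pass.

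Elovl6, which turns palmitate into stearate, was at 46.5, 49.0 and 43.5 CPM in the wildtype and 47.8, 39.6 and 46.1 CPM in the mutants of group 1. In group 2 it was at 31.5, 32.2 and 34.2 CPM in the wildtype, 40.5, 35.0 and 38.4 CPM in the mutants and 44.7, 43.1 and 37.7 CPM in the low-yield mutants. Both kinds of mutant were above every wildtype library of group 2. It rose in the low-yield mutants (log2 fold change 0.36, SE 0.10, adjusted p 0.0305, edgeR), with 0.22 (SE 0.10, adjusted p 0.239) in the group 2 mutants and -0.06 (SE 0.09, adjusted p 0.718) in group 1. Leaving out 1 library ended this call in 5 of 9 cases, namely for any wildtype replicate and for low-yield replicate 1 or 2, with adjusted p up to 0.153.

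Elovl7 had few counts throughout. In group 1 it had 4, 7 and 1 counts in the wildtype and 16, 12 and 31 in the mutants. In group 2 it had 7, 10 and 8 counts in the wildtype, 20, 7 and 18 in the mutants and 12, 15 and 17 in the low-yield mutants. In group 1 it passed the filter on low counts through its mutant libraries. Its log2 fold changes of 2.38, 1.07 and 0.87 (SE 0.80, 0.61 and 0.61) did not pass in any of the 3 comparisons (adjusted p 0.0684, 0.352 and 0.398, edgeR).

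**Figure D2:**
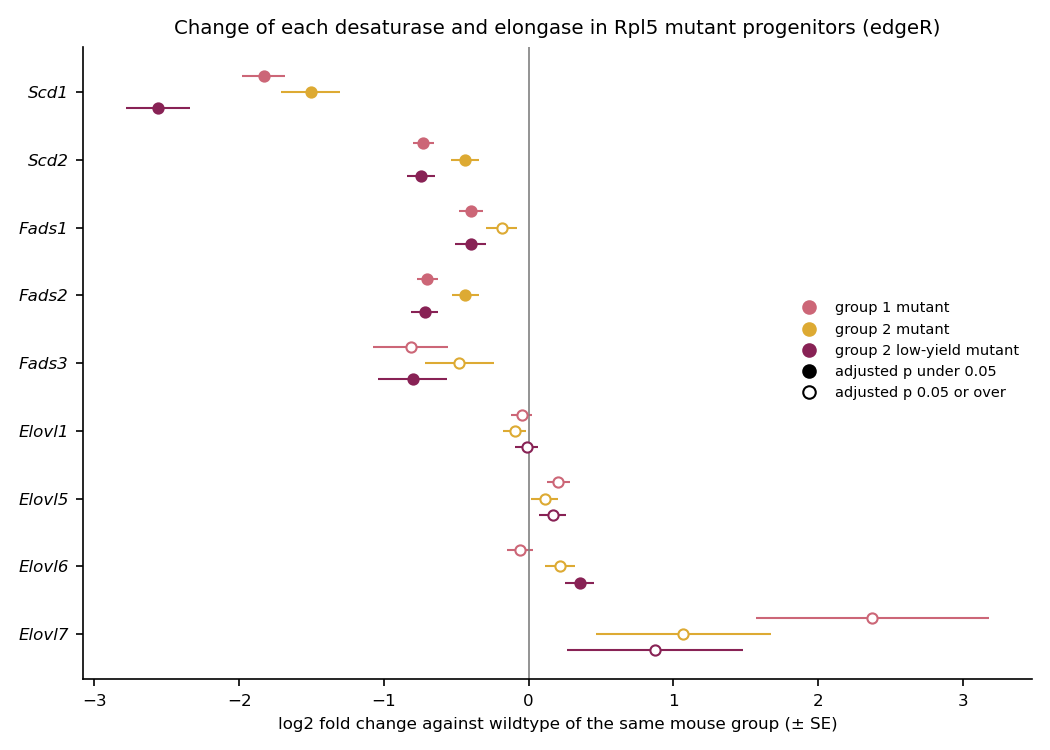
Log2 fold change with its SE for each gene in the group 1 mutants, group 2 mutants and group 2 low-yield mutants against the wildtype of the same mouse group; filled points have an adjusted p under 0.05 over all tested genes and the vertical line marks 0. The desaturases Scd1 to Fads3 lie left of the line in all 3 comparisons, from -2.56 for Scd1 to -0.19 for Fads1, while Elovl6 at 0.36 is the only filled point on the right.

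Counted over the family, 4 of 9 members were called lower in group 1 (Scd1, Scd2, Fads1 and Fads2) and 0 higher, where 6.78% and 5.79% of the 14048 tested genes were called lower and higher. In the group 2 mutants 3 of 9 were called lower (Scd1, Scd2 and Fads2) and 0 higher, beside 2.95% lower and 3.32% higher of 15024 tested genes. In the low-yield mutants 5 of 9 were called lower (all the desaturases) and 1 higher (Elovl6), beside 5.86% lower and 6.68% higher. Mutant libraries lay apart from all wildtype libraries for 5 members below and 2 above (Elovl5, and Elovl7, which had passed the filter through the mutants) in group 1, where this held for 16.6% and 15% of tested genes. In the group 2 mutants they lay apart for 3 members below and 1 above (11.8% and 11.5% of tested genes), and in the low-yield mutants for 4 below and 2 above (14.6% and 15.3%), the latter being Elovl6 and, from few counts and higher in the group that could carry it past the filter, Elovl7. The median log2 fold change over the 9 was -0.40, -0.19 and -0.40, where that over all tested genes was 0.01, -0.01 and 0.00. With the replicate number as a block, 5 members and 2863 genes were called in group 1 in place of 4 and 1766. The group 2 comparisons share their wildtype libraries, so their values stand side by side and are not independent of each other.

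Summed per kb, the desaturases were lower in all mutants while the elongases overlapped. The 5 desaturases together had 218, 235 and 243 CPM per kb in the wildtype and 130, 149 and 142 in the mutants of group 1. In group 2 they had 239, 270 and 253 in the wildtype, 186, 210 and 165 in the mutants and 145, 150 and 160 in the low-yield mutants. Every mutant library was below every wildtype library of its mouse group. The 4 elongases summed to 41.8 to 46.5 CPM per kb in the wildtype and 42.4 to 47.1 in the mutants of group 1, and to 40.2 to 42.9, 39.3 to 42.6 and 42.5 to 45.1 in the sets of group 2, all overlapping. The mean ratio of desaturases to elongases was 5.23 ± 0.562 (SD, n = 3) in the wildtype and 3.12 ± 0.362 in the mutants of group 1, and 6.16 ± 0.407, 4.54 ± 0.736 and 3.46 ± 0.254 in the wildtype, mutants and low-yield mutants of group 2. Scd2 was the largest part of the desaturase sum and made up 49.8% to 61.6% of the summed level of all 9 genes, depending on the library. Scd1 dropped below Elovl6 in the order of levels in all 3 sets of mutants.

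**Figure D3:**
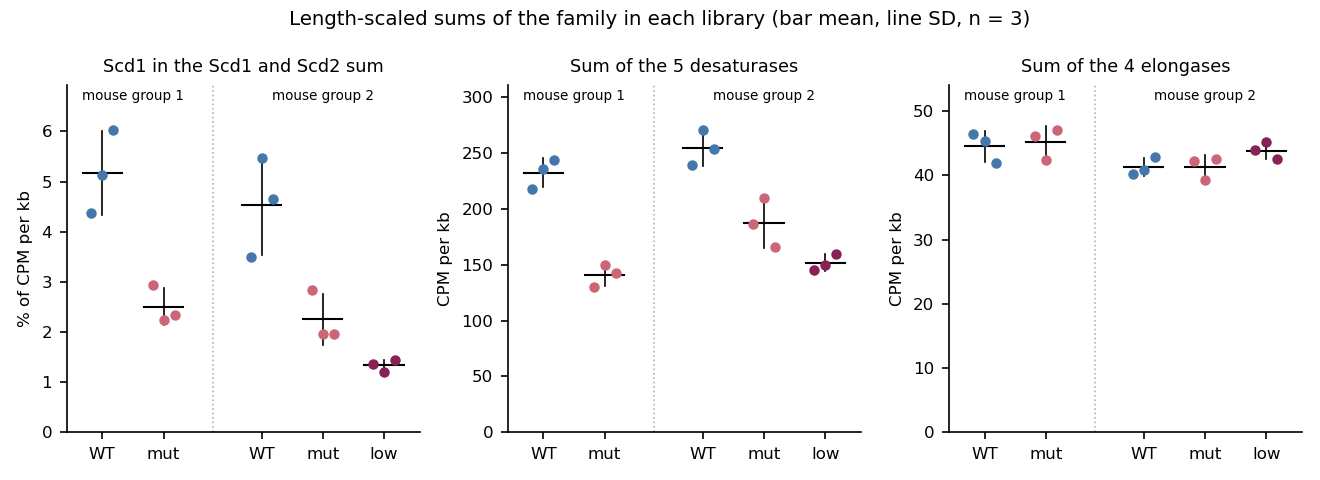
Scd1 as a percentage of the summed Scd1 and Scd2 level, and the summed level of the 5 desaturases and of the 4 elongases in CPM per kb, per library on linear axes from 0; points are libraries, bars means and lines SDs of 3 libraries. The Scd1 share and the desaturase sum were lower in all mutant libraries than in the wildtype of the same mouse group, and the elongase sum overlapped between groups.

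Over both mouse groups, with mouse group as a block, 5 of 9 members were called lower between the 6 mutant and the 6 wildtype libraries, where 9.8% of 15954 tested genes were called lower and 9.8% higher. Those called lower were the 5 desaturases: Scd1 with a log2 fold change of -1.68 (SE 0.16, adjusted p 7.43e-06, edgeR), Scd2 with -0.58 (SE 0.07, adjusted p 8.63e-06), Fads2 with -0.57 (SE 0.07, adjusted p 6.86e-06), Fads3 with -0.63 (SE 0.17, adjusted p 0.0132) and Fads1 with -0.29 (SE 0.07, adjusted p 0.00826). With the hepatocyte marker sum as a covariate, an alternative added after the data were seen, 3 of these calls stood, and Fads1 (-0.19, adjusted p 0.0915) and Fads3 (-0.44, adjusted p 0.116) did not pass. Elovl7 had a log2 fold change of 1.65 (SE 0.49, adjusted p 0.0192), from 1 to 10 counts in the wildtype and 7 to 31 in the mutant libraries. It could pass the filter on low counts mainly through the group where it was higher, so its call supports nothing here. DESeq2 gave it no adjusted p, and with edgeR it was lost without group 1 wildtype replicate 1 (adjusted p 0.0519), group 1 wildtype replicate 3 (0.0595) or group 1 mutant replicate 3 (0.0714). Elovl5 at 0.16 (SE 0.06, adjusted p 0.0740), Elovl6 at 0.07 (SE 0.08) and Elovl1 at -0.07 (SE 0.06) did not pass. Whether the effect of the genotype differed between the mouse groups was tested by the interaction, for which edgeR called 0 members beside 0.0188% of tested genes. The RNA type also differs between the mouse groups, so the interaction cannot tell mouse group and RNA type apart. Unadjusted, 2 members were under 0.05 (Scd2 with an interaction of 0.31, p 0.0281, and Fads2 with 0.28, p 0.0369), while DESeq2 and voom called 0 and had 1 member each under 0.05 unadjusted.

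The low-yield mutants were also compared with the other mutants of group 2. Scd1, Scd2, Fads1 and Fads2 were lower in all 3 low-yield libraries than in any other mutant library, and Elovl1 was higher. Of all tested genes 4.15% were apart below and 4.07% above. The log2 fold change was -1.05 for Scd1 (SE 0.23, unadjusted p 0.000592), -0.31 for Scd2 (SE 0.10, unadjusted p 0.00588), -0.28 for Fads2 (SE 0.09, unadjusted p 0.00921) and -0.21 for Fads1 (SE 0.11, unadjusted p 0.0680). After adjustment edgeR called 0 of the 9 members and 0 of 15024 genes (adjusted p 1.00 for each member), with 3 members and 480 genes under 0.05 unadjusted. DESeq2 called 6 genes, of which Scd1 was 1 (log2 fold change -1.07, adjusted p 0.00368), and voom called 10 genes and 0 members.

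Lists of genes that work with the desaturases and elongases were then read, beginning with their regulators. Of the 13 tested genes of the SREBP and LXR list over both mouse groups, 4 were called lower and 1 higher. The list median was -0.02, beside 0.00 for all tested genes. In that fit 9.8% of all tested genes were called lower and 9.8% higher. Srebf1, which encodes SREBP-1, fell from 205 ± 5.71 to 120 ± 7.25 CPM in group 1 and from 327 ± 25.02 to 236 ± 20.1 in the mutants and 207 ± 3.52 in the low-yield mutants of group 2 (SD, n = 3). Its log2 fold change was -0.77, -0.47 and -0.66 in the 3 comparisons (SE 0.06, 0.08 and 0.08; adjusted p 3.45e-05, 0.00394 and 0.000233, edgeR). Insig1, an SREBP target whose product holds SREBP precursors in the endoplasmic reticulum, was likewise called lower in all 3 (-0.70, -0.56 and -0.68). Rxra, the partner of the liver X receptors, was at -0.26 over both mouse groups (SE 0.06, adjusted p 0.00534). The remaining calls over both mouse groups were Nr1h2, the gene of liver X receptor beta, at -0.22, and Mlx, the partner of the carbohydrate-response factor, at 0.23. Srebf2, the regulator of cholesterol synthesis, was at -0.13 over both mouse groups and did not pass (adjusted p 0.0660, edgeR), but was called lower in the low-yield mutants (-0.26, adjusted p 0.0221). Mbtps2, a protease that releases active SREBP, was called higher in the low-yield mutants (0.53, adjusted p 0.00494).

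Among genes that supply or break down the substrate of elongation and desaturation, some were called higher and others lower. Of the 8 tested genes of palmitate and malonyl-CoA supply, 3 were called higher and 2 lower over both mouse groups, with a median of 0.03. Of all tested genes 9.8% were called in each direction. Fasn, the synthase of palmitate, was at 0.26 (SE 0.07, adjusted p 0.0141, edgeR), Acaca, which makes malonyl-CoA, at 0.23 (SE 0.06, adjusted p 0.00628) and Me1, a source of NADPH, at 0.62 (SE 0.17, adjusted p 0.0117). Within single mouse groups none of these 3 passed; mean Fasn was 242 ± 17.7 and 287 ± 25.2 CPM in the wildtype and mutants of group 1, and 711 ± 80.6, 861 ± 103 and 869 ± 58.6 CPM in the 3 sets of group 2 (SD, n = 3). Acss2, which feeds acetyl-CoA, and Mlycd, which breaks down malonyl-CoA, were the genes called lower (-0.18 and -0.43, adjusted p 0.0494 and 0.0496, edgeR). Mlycd was also called lower in the group 2 mutants (-0.60, adjusted p 0.0350) and the low-yield mutants (-0.51, adjusted p 0.0411), but Acss2 was not. The summed level of the list ranged from 720 to 747 CPM in the wildtype and from 801 to 836 in the mutants of group 1, and from 1288 to 1549, 1432 to 1669 and 1532 to 1646 CPM in the sets of group 2.

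Desaturases take electrons from NADH through cytochrome b5 reductase and cytochrome b5. Of the 5 tested genes of this list 1 was called over both mouse groups, beside 9.8% of all tested genes in each direction. The median of the 5 was -0.01. The gene called was Cyb5r3, the main reductase, at -0.43 (SE 0.05, adjusted p 7.38e-06, edgeR). It was called lower in all 3 comparisons with wildtype (-0.44, -0.42 and -0.60). The cytochromes Cyb5a and Cyb5b were at -0.16 and 0.10 and did not pass. Among the 6 genes that complete the elongation cycle, Hsd17b12, the ketoreductase, was called higher (0.39, SE 0.06, adjusted p 0.000162), and Hacd1, a dehydratase, and Tecr, the last reductase, were called lower (-0.31 and -0.14, adjusted p 0.0174 and 0.0486). The list median was -0.09.

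Acyl-CoA synthetases activate fatty acids before desaturation, and acyltransferases place them in lipids. Over both mouse groups 5 of 11 were called, 3 lower and 2 higher, with a median of -0.06, beside 9.8% of all tested genes in each direction. Acsl6, an isoform known for polyunsaturated fatty acids, was called lower in all 3 comparisons (-0.996, -1.23 and -1.44) and fell from 12.7 ± 1.39 to 6.35 ± 1.46 CPM in group 1 and from 15.5 ± 2.07 to 6.67 ± 1.86 and 5.596 ± 1.81 CPM in the sets of group 2 (SD, n = 3). Acsl3, an isoform of the endoplasmic reticulum and lipid droplets, was called lower in all 3 as well (-0.76, -0.45 and -0.60). Agpat2, an acyltransferase of glycerolipid synthesis, was called higher in all 3 (0.54, 0.56 and 0.76). Of the desaturases and elongases outside the 9, Fads6 and Elovl2 were tested and not called, and Scd3, Scd4, Elovl3 and Elovl4 did not pass the filter on low counts.

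**Figure D4:**
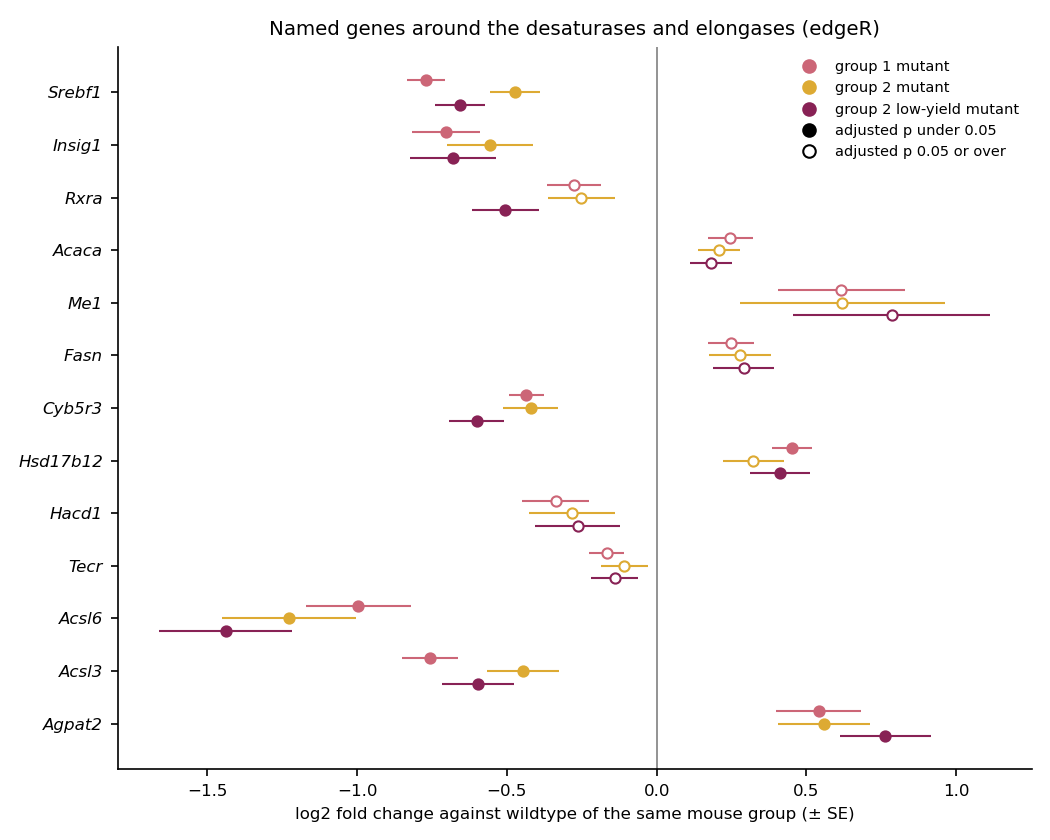
Log2 fold change with its SE for the named genes around the family, in the 3 comparisons with wildtype; filled points have an adjusted p under 0.05 over all tested genes. Srebf1, Insig1, Cyb5r3, Acsl6 and Acsl3 are filled and left of 0 in all 3 comparisons, Agpat2 is filled and right of 0, and Fasn, Acaca and Me1 are right of 0 with open points.

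The desaturases also varied together among libraries. Likeness was measured as Pearson's r of log2 CPM over the 15 libraries after the mean of each mouse group was subtracted, among 9763 genes tested in both mouse groups whose mean CPM reached 2 (9764 for Elovl7); it is a description over libraries that share their genotype, and it holds the difference between genotypes as well as that between replicates. The genes most like Scd1 were Fads2 (r 0.97), Tspo2, a late erythroid translocator protein (0.97), and Epn1 (0.96). Those most like Scd2 were Srebf1 (0.97), Fads2 (0.97) and Tspo2 (0.97). Fads2 had Ppox, an enzyme of heme synthesis (0.97), Scd1 (0.97) and Nxpe4 (0.97). Fads1 had Tmem184a (0.97) and Cdc25b (0.94), and Fads3 had Slc2a1, the gene of a glucose transporter (0.91), Ahsa2 (0.90) and Scd2 (0.90). For Elovl7 the nearest were Mtrf1 (0.92), Ica1l (0.92) and Ankmy2 (0.90).

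When the mean of each of the 5 groups was subtracted instead, so that only the differences between replicates remained, r between Scd2 and Srebf1 was 0.71. It was 0.73 between Scd1 and Fads2, 0.89 between Fads1 and Fads2, 0.42 between Scd1 and Scd2 and 0.13 between Scd1 and Fads3. Fads1 kept 0.92 with Tmem184a and 0.90 with Cdc25b. Between Scd2 and Elovl1 it was -0.73, where r with only the mouse group means removed was 0.04. These coefficients rest on 15 libraries in groups of 3 and carry no test.

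Markers of maturity and of other cells moved with the genotype, and their part in the values of the desaturases was not tested except for the hepatocyte markers, by 1 added fit. Of 13 erythroid markers 9 were called lower over both mouse groups, among them Klf1 (log2 fold change -0.50), the erythroid master activator, and 1 higher, Kit (0.38), the receptor of early progenitors. Their summed level was 4285 to 4961 CPM in the wildtype and 3658 to 3788 in the mutants of group 1, and 5647 to 6111, 4971 to 5203 and 4683 to 5336 CPM in the 3 sets of group 2. The 8 early progenitor markers include Kit, which also stands in the erythroid list and gave most of their sum (161 CPM in the wildtype and 198 in the mutants of group 1 on average); of the 7 tested, 1 was called in group 1 (Kit), 2 in the group 2 mutants and 3 in the low-yield mutants, all higher. They summed to 154 to 188 CPM in the wildtype and 201 to 252 in the mutants of group 1, and to 164 to 210, 240 to 295 and 264 to 299.6 CPM in the sets of group 2. In such bulk libraries fewer cells of one stage and less RNA per cell cannot be told apart. Of the granulocyte and mast cell markers, 0 of 12 tested were called in group 1, 7 of 10 were called higher in the group 2 mutants and 10 of 10 in the low-yield mutants, where Mpo rose from a mean of 7.99 CPM to 66.5 and 95.7. Of the megakaryocyte markers, 1 of 7 was called higher and 1 lower in group 1, 1 of 6 higher in the group 2 mutants, and 3 of 6 higher and 1 lower in the low-yield mutants. Their sum was 30.2 to 45.4 CPM in the wildtype and 37.3 to 49.6 in the mutants of group 1, and 39.9 to 46.5, 45.3 to 47.6 and 60.3 to 65.0 CPM in the sets of group 2. Of the endothelial markers, 0 of 3 were called in group 1, 1 of 4 was higher in the group 2 mutants and 3 of 4 were higher in the low-yield mutants. Their sum was 2.09 to 4.38 and 3.91 to 9.67 CPM in group 1, and 0.896 to 1.90, 3.56 to 5.87 and 6.45 to 10.01 CPM in group 2. Of the macrophage markers 3 were tested and 0 called in each comparison, with Cd5l and Timd4 at 0 in all libraries. Of 13 tested hepatocyte markers 4 were called lower in group 1 (Alb at -2.29) and 0 in the group 2 mutants and the low-yield mutants. In group 1 the hepatocyte sum did not overlap between the genotypes, so marker sum and genotype cannot be told apart there. In a fit with the log2 sum of these markers as a covariate, added after the data were seen, 268 genes were called in group 1 in place of 1766, and Fads1 was no longer among them (log2 fold change -0.41, adjusted p 0.208). The log2 fold change of Scd1 in that fit was -2.02, -1.49 and -2.57 in the 3 comparisons with wildtype (adjusted p 0.0138, 0.00558 and 0.000203, edgeR).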

How the data were processed

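RNA sequencing of 15 fetal liver libraries in 5 groups of 3 was used. The deposited values are expected counts per gene, estimated reads that the authors' counting assigned to each gene, not normalised. The submitters' processing notes name cutadapt 2.3, STAR 2.7.8a, RSEM 1.3.3, FastQC 0.11.8, MultiQC 1.7 and GRCm38; annotation release and strand setting are not given in the sources used here. The expected counts were whole as deposited, so rounding changed 0 values. Rows naming no mouse gene (4 and 5 in the tables of groups 1 and 2, with 4 and 1 counts) were left out, and every value column belonged to a library. Libraries of a group differed by more than sampling noise (chi-square per degree of freedom 20.1 to 76.5).

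From these counts, edgeR 4.0.16 in R 4.3.3 tested all genes past filterByExpr: TMM scaling, robust quasi-likelihood F test, two-sided, Benjamini-Hochberg adjustment over all tested genes, threshold 0.05 ("called"). Group 1 was fitted alone, the 9 libraries of group 2 together, and both mouse groups with mouse group as a block. Alternatives were median-of-ratios scaling, DESeq2 1.42.0, voom (limma 3.58.1), other filters, a replicate block and each library left out. In group 1, deviations from group means correlated at 0.44, 0.19 and 0.15 between same-numbered libraries. Mutant replicate 2 and wildtype replicate 3, with different numbers, had 0.23. The labels name no shared litter or day, so pairing is uncertain. The main fit took no pairs, and the replicate block was an alternative. CPM are scaled within a mouse group, and lengths are those of GENCODE M21, which holds 55141 of the 55487 genes.

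Named genes are the members, Rpl5, the genes of 6 pathway lists called over both mouse groups (the 3 with the smallest p where a list has more), and the 3 genes most like each member called over both groups. Nr1h2, Mlx, Srebf2, Mbtps2, Acss2, Mlycd, Cyb5a, Cyb5b and the marker genes were named after their values were seen. Members, lists and comparisons were chosen with earlier results of these data known, and the older quasi-likelihood mode and the hepatocyte covariate were alternatives added after the data were seen. A gene that these rules select is not reported here.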

Additional observations from a re-analysis of the deposited data

How the results depend on the processing

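Among 1059 values of single genes under alternatives, 1016 stayed on the same side of the threshold or within the spread of replicates. Some of these were not called and changed sign, such as Elovl1 and Elovl6 in group 1. Another 30 fell short of the threshold, 5 passed it newly and 8 levels moved with the transcript length used. None reversed a call. Besides calls given as lost in the report, those lost include Fads3 in the low-yield mutants with the older quasi-likelihood mode (adjusted p 0.0607), Elovl7 over both groups with that mode (0.0788) and, with the hepatocyte covariate, Fads1 (0.0915), Fads3 (0.116) and Elovl7 (0.123) over both groups, which left 3 members called there. DESeq2 gave Elovl7 no adjusted p over both groups and called 5 members. Elovl5 passed over both groups with voom (0.0273), a mean CPM of at least 5 (0.0313) or without group 2 wildtype replicate 3 (0.0482). Counts of called genes moved more than 1.5 times as follows. Group 1 gave 2863 with the replicate block, 268 with the hepatocyte covariate and 753 to 1729 with a library left out. The group 2 mutants gave 1452 with DESeq2, 1928 with voom and 425 to 1323 (1 to 3 members) with a library left out. The low-yield mutants gave 3348 with voom, 2838 with the hepatocyte covariate and 900 to 2395 (3 to 6 members) with a library left out. Low-yield against other mutants gave 6 with DESeq2 (1 member), 10 with voom and 0 to 22 with a library left out. The interaction gave 13 with DESeq2 and 5 with the replicate block. The cause of these shifts was not tested, except that leaving out a library leaves fewer samples. In group 2 same-numbered libraries did not all deviate together (mutant against wildtype 0.24, 0.17 and 0.02; low-yield against wildtype 0.08, -0.07 and 0.02), so the numbers are not taken as pairs; the block gave 1309 and 2331 calls there and changed no call of a member. The low counts of Elovl7 (1 to 31) and Fads3 limit their precision.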
